A study of Homo sapiens with 12 samples.

Results

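The comparison described here is that of shA673-1c cells after 4 h of actinomycin D (ActD) with the same cells after 2 h, the late interval of a transcription block. Its members are all genes with a mean of at least 10 raw counts over the 12 libraries of the time course, which left 12032 of the 26334 genes in the count table. The interval used 6 of the 12 libraries, replicates 1, 2 and 3 at each of the 2 times, and each 4 h library was set against the 2 h library with the same replicate number.

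The series followed RNA loss in shA673-1c, a derivative of the Ewing sarcoma cell line A673, at 0, 1, 2 and 4 h of ActD with 3 biological replicates per time. Both groups compared here had 5 µM ActD, and the 0 h cells were taken at the start of treatment. All cells, those of 0 h included, were grown in high-glucose DMEM with serum, penicillin and streptomycin, and with the selection drugs blasticidin and zeocin in the medium. Cells sat in 6-well plates, RNA was taken with a column kit, and stranded libraries were made from poly(A) RNA. The labels describe neither the hairpin that the name of the line points to, nor whether it was induced, nor whether the line is 1 clone.

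ActD binds DNA and stops RNA polymerases, so that an RNA already made can only be processed, moved or degraded. Messages of signalling-response genes, many of which carry AU-rich elements in their 3′ untranslated regions, are known to be short-lived, whereas messages for ribosomal proteins, metabolic enzymes and the cytoskeleton are known to be long-lived. A late interval such as 2 to 4 h is therefore one in which the shortest-lived messages have already run low and messages of intermediate stability come apart from the stable ones. A poly(A) library loses a transcript when it is deadenylated as well as when it is degraded, and these cannot be told apart here. Because no spike-in was used, every value is a share of the RNA in its library, and a stable message rises in share when others disappear; fewer cells and less RNA per cell cannot be told apart either.

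Total counts ran from 10054381 to 10251301 in the 3 libraries of 2 h and from 9147018 to 11194705 in those of 4 h, with 15407 to 15767 genes detected per library over the whole time course. Of 12 markers of Ewing sarcoma cells, 11 had a mean of at least 10 counts, among them CCND1, EWSR1, LIPI, PRKCB and STEAP1, and their summed level was 2462 to 2619 CPM at 2 h and 2664 to 2897 CPM at 4 h. Most of that sum was CCND1, with means of 1727 and 1978 CPM, while FLI1 (means of 50.8 and 20.4 CPM), NR0B1 (21.8 and 9.05 CPM), NKX2-2 (2.98 and 1.17 CPM) and KIT (14.5 and 11.4 CPM) were lower at 4 h. CD99, the surface protein by which the tumour is usually recognised, was listed at 0 in every library, and whether the cells lacked its message or the counting left it out was not tested. Markers of endothelial, epithelial, blood, and muscle or fibroblast cells summed to at most 5.47 CPM in any of the 6 libraries, and 0 of 8, 1 of 7, 1 of 6 and 1 of 6 of them had a mean of 10 counts. Levels are given as CPM, the counts scaled to the same library size with trimmed mean of M-values factors, and changes are log2 values of 4 h over 2 h from edgeR's quasi-likelihood test with the replicate number as a block and Benjamini-Hochberg adjusted p. The replicates were separate samples by their labels. The p-values measure the spread left over after the block, estimated from all 12 libraries of the 4 times (6 residual degrees of freedom) and partly pooled across genes. Differences between replicates that are shared over the times are not part of it.

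Between 2 and 4 h of ActD, 3046 of 12032 genes were lower (25.3% of the genes tested) and 3050 were higher (25.3%), at an adjusted p below 0.05, and 5936 passed in neither direction. The falls were the larger changes. Of the lower genes, 417 fell by 1 log2 unit or more, 1073 fell by 0.5 to 1 and 1556 by less than 0.5, while only 17 of the higher genes rose by 1 log2 unit or more, 226 rose by 0.5 to 1 and 2807 by less. The middle gene changed by 0.02 on the log2 scale, the gene at the 5th percentile fell by 0.88, leaving 54.2% of its 2 h level, and the gene at the 95th percentile rose by 0.42. All 3 libraries of 4 h lay below all 3 of 2 h for 2728 of the 12032 genes, and above them for 2360. Among the called genes this held for 2519 of the lower and 2053 of the higher ones, counts that are tied to the calls. Among the 417 genes with the deepest falls, chosen by the size of the fall, 4 h lay below 2 h in this way for 403.

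The split into falling and rising genes depends on the scaling. Higher genes made up 50.03% of the calls with the scaling used here, 31.6% (1811 higher against 3920 lower) when libraries were scaled by their totals, and 1.74% (130 against 7343) when they were scaled to the sum of GAPDH and ACTB. These scalings moved the 4 h to 2 h change of a gene by -0.085 and -0.31 on the log2 scale. Without the replicate block the test called 2199 genes lower and 1449 higher.

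**Figure D1:**
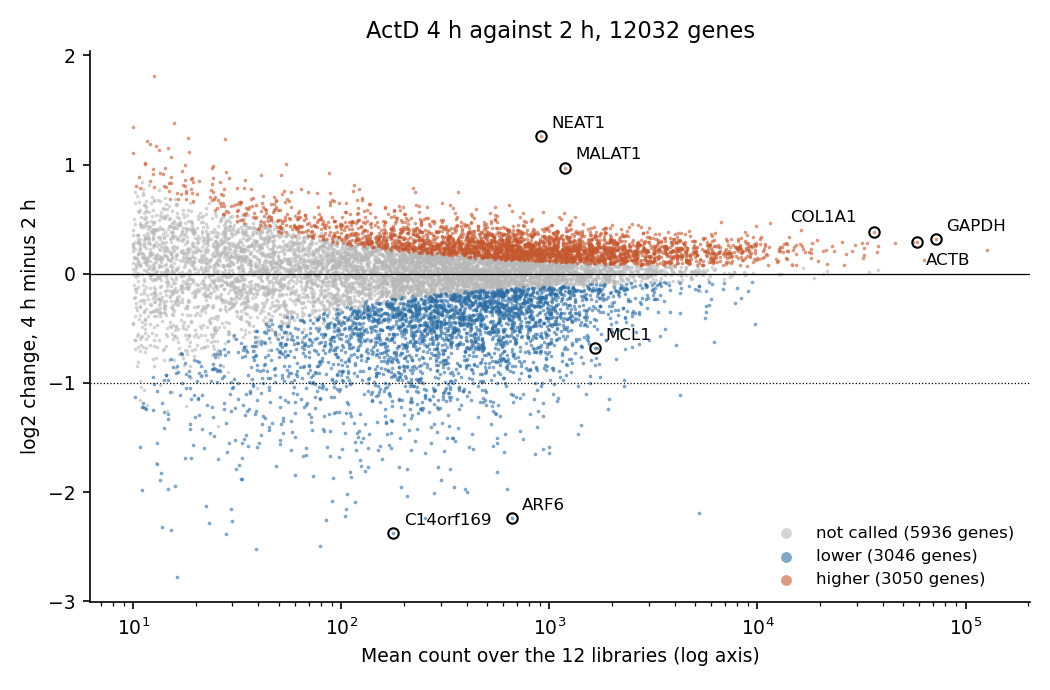
Each point is 1 of the 12032 genes, with its mean count over the 12 libraries on a log axis and its log2 change from 2 to 4 h of ActD, coloured by the test's call (3046 lower, 3050 higher, 5936 not called). Falls reach far below the dotted line at -1, as for ARF6 and C14orf169, whereas most rises stay under 0.5 and NEAT1 and MALAT1 stand at 1.26 and 0.97.

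Among the 16 steepest falls chosen by the naming rule, the first was that of CARD8-AS1, an antisense RNA. The next was that of C14orf169, a ribosomal oxygenase gene. CARD8-AS1 had 13, 8 and 11 reads at 4 h. With a replicate left out its change ran from -2.77 to -2.18 and that of C14orf169 from -2.53 to -2.31, so their order is uncertain. CARD8-AS1 stood at 6.16, 7.19 and 6.49 CPM at 2 h and at 1.54, 0.774 and 1.23 CPM at 4 h, a change of -2.50 (SE 0.23, adjusted p = 2.09e-10, edgeR); since the strand setting of the counting is not given in the sources used here, its reads cannot be told from those of an overlapping gene. C14orf169 stood at 14.4, 11.6 and 11.03 CPM at 2 h and at 2.61, 2.71 and 1.79 CPM at 4 h. In both genes the 3 libraries of 4 h were far below the 3 of 2 h, and 17.7% and 19.3% of the 2 h level was left.

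ARF6, a small GTPase of endocytic recycling, fell from 43.3, 53.5 and 49.8 CPM to 10.8, 9.78 and 10.6 CPM, a change of -2.24 (SE 0.097, adjusted p = 1.33e-17, edgeR). The groups were well apart, and the replicates at 4 h lay close together.

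PIK3R1, the regulatory subunit of phosphoinositide 3-kinase, stood at 39.8, 43.3 and 41.8 CPM at 2 h and at 10.7, 11.1 and 10.1 CPM at 4 h, a change of -1.97 (SE 0.086). FADD, the adaptor of death receptors, stood at 21.8, 20.9 and 19.5 CPM and then at 5.57, 6.29 and 3.47 CPM, a change of -2.00. BCOR, a transcriptional corepressor, went from 29.7, 31.5 and 28.5 CPM to 6.99, 7.55 and 7.84 CPM. Of the 2 h level, 25.5%, 24.9% and 25.1% was left in the 3 genes, and no library of 4 h reached any of 2 h.

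A further 9 of the 16 steepest falls chosen by the naming rule were MSC (-2.25), a repressor of the basic helix-loop-helix family, RNF139 (-2.24), a membrane ubiquitin ligase, TMEM177 (-2.22), a mitochondrial membrane protein, BAMBI (-2.16), a decoy receptor of TGF-beta signalling, RNF19B (-2.09), another ubiquitin ligase, CCDC12 (-2.08), MAD2L1BP (-2.04), which silences the spindle checkpoint, IRF2BPL (-2.02) and RND3 (-1.97), an atypical small GTPase. Their adjusted p-values ran from 7.72e-15 for RNF139 to 5.29e-07 for BAMBI. In all of them every library of 4 h lay below every library of 2 h, and at most 25.6% of the 2 h level was left. Some were near the floor at 4 h, with 6, 7 and 8 reads for MSC, 8, 7 and 9 for BAMBI and 7, 11 and 8 for IRF2BPL.

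The 10 steepest rises, taken from genes that averaged 50 counts or more, were led by NEAT1, with LIME1 and MALAT1 next. NEAT1, the scaffold RNA of paraspeckles, stood at 76.9, 57.2 and 79.2 CPM at 2 h and at 173, 141 and 197 CPM at 4 h, a change of 1.26 (SE 0.055, adjusted p = 1.64e-17, edgeR). MALAT1, the RNA of nuclear speckles, stood at 90.7, 112 and 126 CPM and then at 165, 236 and 242 CPM, a change of 0.97. Every 4 h library exceeded every 2 h library for both, and NEAT1 had hardly moved in the preceding hours, with means of 65.2, 65.0 and 71.1 CPM at 0, 1 and 2 h.

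The other 8 were LIME1 (1.00, and 0.57 without replicate 3), ANKRD36 (0.92), BTBD19 (0.90), AMH (0.81), which encodes anti-Müllerian hormone, NDUFS7 (0.78, and 0.52 without replicate 3), a subunit of respiratory complex I, KCTD13 (0.78), KCNQ1OT1 (0.77), an imprinted antisense RNA, and ABCA7 (0.76), a lipid transporter. ANKRD36 stood at 8.44, 8.20 and 9.68 CPM at 2 h and at 15.3, 15.5 and 18.8 CPM at 4 h, but it has close copies that can share its reads. NDUFS7 stood at 22.5, 17.7 and 15.7 CPM and then at 27.0, 30.9 and 37.8 CPM. The 4 h libraries were all above the 2 h libraries for 9 of the 10 genes, and overlapped for ABCA7, which rose within each pair and was not called without the replicate block (adjusted p = 0.294). KCNQ1OT1 was no longer called without the block (0.104), without replicate 3 (0.085), scaled to GAPDH plus ACTB (0.0790) or with DESeq2 (0.140).

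GAPDH and ACTB, often used as references, rose in this interval. GAPDH stood at 7477, 6974 and 7340.0 CPM at 2 h and at 9612, 8589 and 8928 CPM at 4 h, a change of 0.32 (SE 0.021), with no overlap. ACTB stood at 6232, 6077 and 4967 CPM and then at 7901, 7158 and 6133 CPM, a change of 0.29 (SE 0.024), and its groups overlapped because replicate 3 was low at both times. Scaled to their own sum the changes were 0.01 for GAPDH and -0.01 for ACTB.

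**Figure D2:**
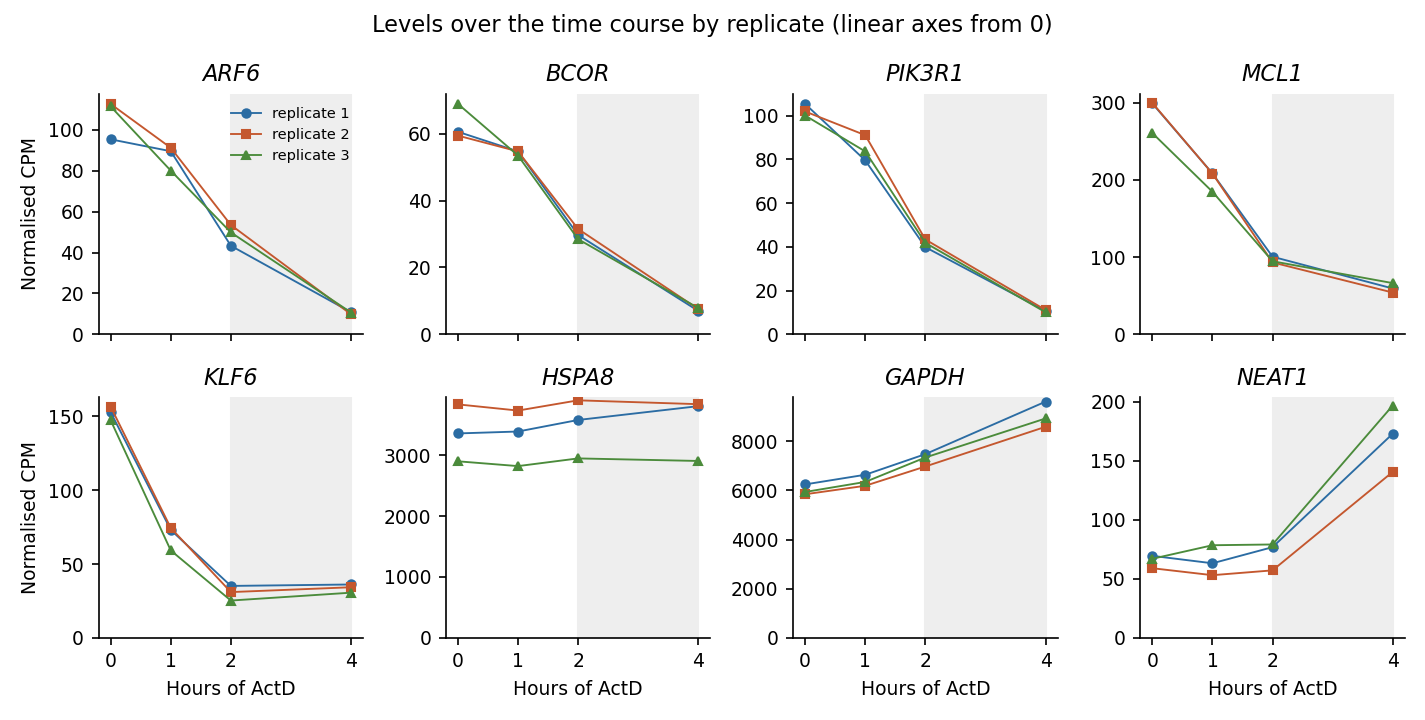
Normalised CPM on linear axes from 0 against hours of ActD for 8 genes, with 1 line per replicate and the interval from 2 to 4 h shaded. ARF6, BCOR and PIK3R1 kept falling in the shaded interval, MCL1 fell by less, KLF6 had levelled after 2 h, HSPA8 stayed near its 2 h level, and GAPDH and NEAT1 rose in all 3 replicates.

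The structure of the transcript, which the choice of genes had not used, went with these changes. Of the genes tested, 11797 (98.0%) could be matched by symbol or older symbol to a canonical transcript of GENCODE 44, which is annotated on GRCh38, whereas the submitters' processing notes name hg19. Among the 11391 protein-coding genes, the 195 with a single exon had a median change of -0.48, and 105 of them (53.8%) were lower and 9 (4.62%) higher, against 25.3% in each direction over all genes. The 479 genes with 2 exons had a median of -0.36, with 50.1% lower and 8.56% higher. The 2325 genes with 3 to 5 exons were at 0.01, and the genes with 6 to 10, 11 to 20 and 21 or more exons lay between 0.03 and 0.04. Deep falls of 1 log2 unit or more made up 23.1% of the single-exon genes, 18.2% of those with 2 exons and 0.669% of those with at least 21.

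The same order was found within each class of transcript length. Among transcripts of 2000 to under 4000 bases, the 87 single-exon genes had a median of -0.56 and the 4000 others one of 0.03, and among those of 4000 bases or more the medians were -0.49 for 63 genes and -0.05 for 4751. Under 2000 bases they were -0.10 for 45 genes and 0.13 for 2445. Each pair of replicates gave the same order, and the median of the single-exon genes taken within each pair, on a log2 scale of CPM plus 0.5, averaged -0.42 ± 0.013 (SD, n = 3 pairs). Single-exon genes had fewer reads, with a median mean count of 111 against 331 over the protein-coding genes, and what part this had in the difference was not tested. They were also the lower group from 0 to 1 h, at a median of -0.24.

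Exon density, the number of exons per 1000 bases of transcript, ordered the genes over its whole range. The median change rose from -0.22 in the 1419 genes with fewer than 1 exon per 1000 bases through -0.08, -0.03, 0.02 and 0.10 to 0.17 in the 1601 genes with 6 or more. Over the same classes the share of lower genes went from 43.5% to 9.06% and that of higher genes from 8.74% to 47.3%. ARF6, C14orf169, TMEM177 and FADD, with 2, 1, 2 and 2 exons, lie at the low end, whereas BCOR and PIK3R1, with 15 and 16 exons, show that a gene of many exons could fall as far. GC content ran along with the change too, from a median of -0.04 below 40% to 0.19 at 60% or above. In the class of 60% or above the medians within replicate pairs 1, 2 and 3 differed, at 0.079, 0.19 and 0.24. Transcript length, by which exon density is divided, also ordered the medians. They fell from 0.20 in the 561 genes with transcripts under 1000 bases to -0.08 in the 1090 genes of the longest class. The share of lower genes was 7.49% in the shortest class and 36.6% in the longest. What part length had in the order by exon density was not tested.

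**Figure D3:**
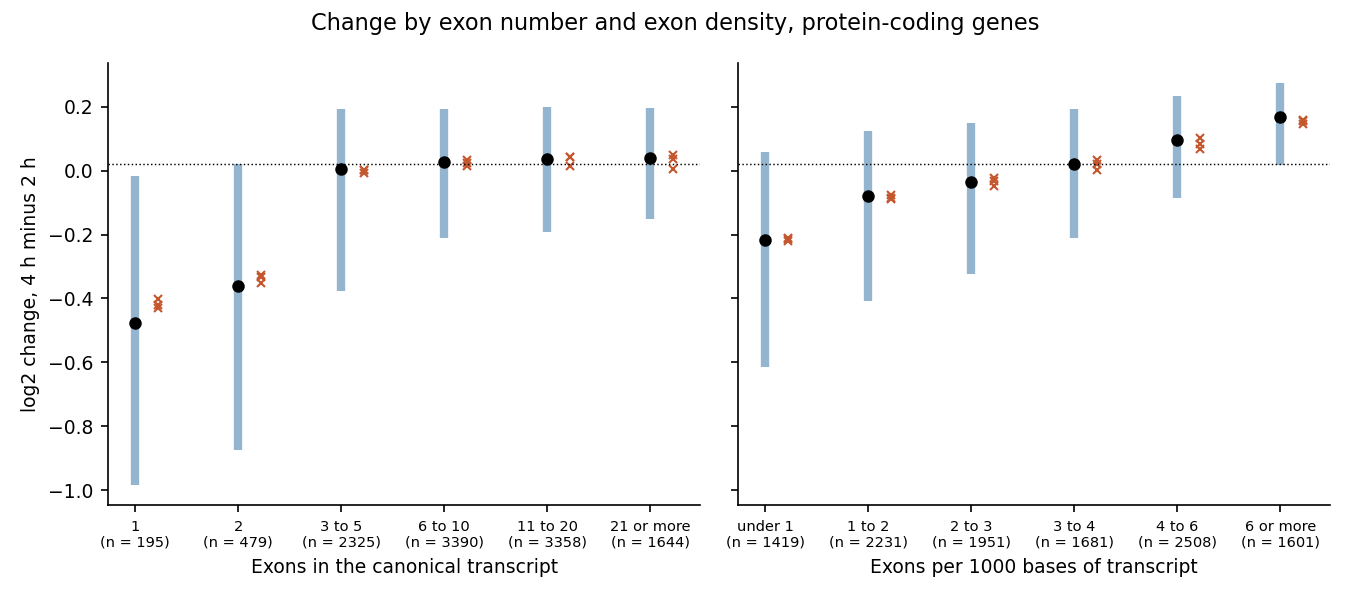
Median log2 change from 2 to 4 h (black points) with the middle 50% of genes (bars) by exon number and by exons per 1000 bases of the canonical transcript, for protein-coding genes; crosses are the medians within each of the 3 replicate pairs and the dotted line is the median of all genes. Genes with 1 or 2 exons lie at -0.48 and -0.36, apart from all other classes, and density orders the medians from -0.22 to 0.17.

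The presence of an AU-rich heptamer separated the late changes less than exon number did. The motif searched was the heptamer TATTTAT, on the transcript's own strand and counting overlapping matches, in the 3′ untranslated region of 11384 canonical transcripts, and 37.4% of them held at least 1. It was found in 39.2% of the genes that fell by 1 log2 unit or more, 46.6% of the other lower genes, 39.3% of the genes called in neither direction and 25.5% of the higher genes. The untranslated regions differed in length, with medians of 1327.5, 1930.5, 1500.5 and 898.5 bases in that order. The shorter motif ATTTA, counted per 1000 bases of these regions, had medians of 2.14, 2.20, 1.90 and 1.03 in the same order. In regions of 1000 to under 2000 bases, the median change was 0.04 in the 1703 genes without the motif, -0.04 in the 612 with 1 match and -0.05 in the 280 with more. Among the named genes a match was found for ARF6, BCOR and RND3, 3 of the 16 steepest falls, and for BTBD19, AMH and KCTD13, 3 of the 10 steepest rises. Not every named gene could be scored. The noncoding CARD8-AS1, NEAT1, MALAT1 and KCNQ1OT1 have no 3′ untranslated region. Genes of 1 chromosome, MSC and RNF139 among them, were left out of this search. The 2 shares are therefore not compared. The 4 printed here, 2 that fell and 2 that rose, are 30-base windows from GENCODE 44 transcripts on GRCh38, written 5′ to 3′ in the transcript's sense with the heptamer in capitals. ARF6 is at chr14:49896859-49896888 on the plus strand, BCOR at chrX:40051292-40051321 on the minus strand, AMH at chr19:2252011-2252040 on the plus strand and KCTD13 at chr16:29906374-29906403 on the minus strand.
ARF6: atccatttctgTATTTATgtgaatttataa
BCOR: ctctgcctttgTATTTATattttacaaaaa
AMH: gccccttcccaTATTTATtcggaccccaag
KCTD13: ctgtttcatatTATTTATtattttaatttt
ARF6 and BCOR had changed by -2.24 and -2.00, and AMH and KCTD13 by 0.81 and 0.78, so that the same letters stood in genes that went opposite ways. A match describes the letters only.

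The late changes were next set beside those of the first hour, a comparison with which they share no library. From 0 to 1 h, 1261 genes were lower (10.5%) and 744 higher (6.18%). Of the 3046 genes lower from 2 to 4 h, 781 (25.6%) had also been lower in the first hour, 16 had been higher, and 2249 (73.8%) had not been called. Read from the other side, 61.9% of the 1261 early fallers were lower again in the late interval, 41 were higher, and 439 were not called. Of the 744 early risers, 613 (82.4%) were higher again. The 417 deepest late falls divided into 207 that had been lower in the first hour, 209 that had not been called and 1 that had been higher. Those 417 genes changed by a median of -0.26 per hour from 0 to 1 h, -0.70 per hour from 1 to 2 h and -0.62 per hour from 2 to 4 h, on the log2 scale, the last value being tied to their choice, while the remaining lower genes went from -0.10 through -0.20 to -0.22.

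Whether a gene's rate differed between the intervals was tested with a contrast of its hourly change from 2 to 4 h against that from 0 to 1 h. The late rate was lower, that is, the fall was steeper or the rise slower, in 794 genes (6.60%), and it was higher in 682 (5.67%). These counts depend on the block, since without it 72 and 98 genes passed. They also fell when 1 replicate was left out, to 608, 365 and 535 for the lower rates and 427, 261 and 257 for the higher ones, without replicates 1, 2 and 3.

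The genes with the most negative differences were picked by that value, so that the contrast between their intervals is tied to their choice. Those whose fall came late had hardly moved in the first hour. RNF19B stood at means of 16.8, 16.9, 9.10 and 2.11 CPM at 0, 1, 2 and 4 h, with a late rate of -1.05 log2 per hour and a difference from the first hour of -1.06 log2 per hour (SE 0.13, adjusted p = 1.25e-06, edgeR). C14orf169 followed with means of 28.1, 25.3, 12.4 and 2.37 CPM, and CCDC12 with 12.9, 12.6, 7.66 and 1.80 CPM, at differences of -1.03 and -1.01. TMEM177 (-0.88) and MUL1 (-0.84), a ubiquitin ligase of the mitochondrial outer membrane, had the same course. PDXDC2P was of another kind, since it rose by 0.81 in the first hour and changed by -0.11 (SE 0.14) from 2 to 4 h, which did not pass. It is a pseudogene with a close coding copy, and its reads are uncertain.

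The genes with the greatest differences in the other direction, picked in the same way, had lost most of their RNA before the late interval began. ADRB1, the beta-1 adrenergic receptor, fell by 1.74 in the first hour, to 10.2, 9.33 and 8.62 CPM from 30.2, 32.2 and 31.9 CPM, and stood at 3.87, 4.05 and 3.48 CPM at 2 h and at 3.44, 4.84 and 6.16 CPM at 4 h. The last 2 groups overlapped, and the change of 0.35 (SE 0.19) did not pass (adjusted p = 0.138, edgeR). SOCS3, a feedback inhibitor of cytokine receptors, fell by 1.82 in the first hour and changed by -0.04 (SE 0.30) in the late interval. C2orf69, TRIB1, a pseudokinase, GADD45B, a stress-response gene, and DNM3OS, an antisense RNA, had the same course, with rate differences from 1.56 to 1.76. At 2 and 4 h SOCS3 and TRIB1 were down to between 8 and 26 reads per library, so that a further fall was hard to detect at this depth.

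KLF6, a zinc finger factor, showed the levelling at a higher count. It fell from means of 152 to 68.9 and 30.5 CPM over the first 2 h and then stood at 35.2, 31.0 and 25.3 CPM at 2 h and at 36.1, 34.3 and 30.6 CPM at 4 h. The groups overlapped, with 261 to 354 reads per library, and the change of 0.14 (SE 0.079) did not pass (adjusted p = 0.129, edgeR). Its late rate was higher than its early one by 1.22 log2 per hour (SE 0.067).

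**Figure D4:**
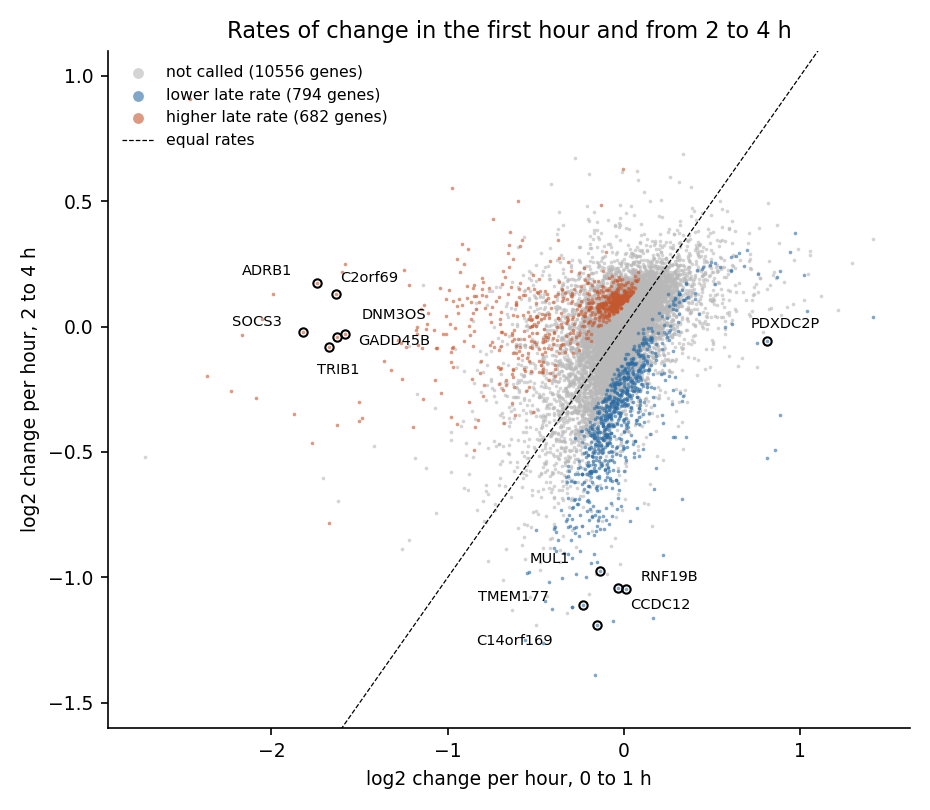
Hourly log2 change from 0 to 1 h against that from 2 to 4 h for the 12032 genes, coloured where the 2 rates differed (794 lower, 682 higher late) with the line of equal rates dashed. The named genes were picked by the difference of the 2 rates, and their separation into 2 groups is tied to that choice. RNF19B, CCDC12, C14orf169, TMEM177 and MUL1 lie near 0 in the first hour and near -1 later. ADRB1, SOCS3, C2orf69, TRIB1, GADD45B and DNM3OS lie below -1 at first and near 0 later, while PDXDC2P rose first.

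Gene groups were then described by how many of their measured members passed in each direction, beside 25.3% in each direction and a median of 0.02 over all genes. Immediate early and growth-response genes, the group that responds to serum and growth factors without new protein, had 17 lower and 1 higher of 37 measured, with a median of -0.62. RHOB, a small GTPase gene with 1 exon, fell most, from 26.7, 21.3 and 15.9 CPM to 7.23, 5.32 and 3.92 CPM (-1.96, SE 0.12). MCL1, an anti-apoptotic gene and the most abundant of the group, fell from 101, 93.2 and 94.7 CPM to 59.4, 54.1 and 66.3 CPM (-0.68, SE 0.064), after means of 287, 200.5 and 96.1 CPM at 0, 1 and 2 h. MAFK, a small Maf factor, was the only one called higher (0.31). Its groups overlapped and it fell slightly in pair 1, and it was not called with library totals (adjusted p = 0.113), without the block (0.249), with DESeq2 (0.0937), or without replicate 2 (0.267) or 3 (0.199), and stood at 0.48 without replicate 1. In the first hour 28 of the 37 had been lower, against 10.5% of all genes. The late rate was higher in 12 of the 37, against 5.67% of all genes.

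Feedback genes of ERK and receptor signalling had 11 lower and 1 higher of 17, with a median of -0.70. DUSP5, a phosphatase of ERK, fell from 8.64, 9.32 and 4.65 CPM to 2.96, 2.52 and 1.12 CPM (-1.77), and ETV5, an ETS factor, from 107, 102 and 96.6 CPM to 87.1, 76.9 and 79.1 CPM (-0.33). SPRY4, an inhibitor of receptor tyrosine kinase signalling, went the other way. It had means of 31.7 and 20.5 CPM at 0 and 1 h, and then stood at 12.3, 10.3 and 9.68 CPM at 2 h and at 19.0, 13.2 and 15.2 CPM at 4 h, with no overlap (0.54, SE 0.11, adjusted p = 9.76e-05, edgeR). Scaled to GAPDH plus ACTB, SPRY4 stood at 0.24 and was not called (adjusted p = 0.0541, edgeR).

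Target genes of Notch, Wnt and TGF-beta signalling had 9 lower and 1 higher of 16, with a median of -0.61. BAMBI led the falls. ID2, an inhibitor of differentiation, fell from 54.5, 56.5 and 56.5 CPM to 20.4, 20.4 and 14.3 CPM (-1.60, SE 0.088). Krüppel-like factors had 6 lower and 1 higher of 12, among them KLF2 (-1.70), measured at under 1 CPM in these libraries, and KLF7 (0.31). KLF2 was not called without the block (adjusted p = 0.0721) or without replicate 1 (0.0691) or 3 (0.122). KLF7 was not called with library totals (0.0832), without the block (0.158), with DESeq2 (0.0549) or without replicate 3, where it stood at 0.13 (0.368). Of 387 genes with a ZNF symbol, the large class of zinc finger repressors, 115 were lower and 24 higher, with a median of -0.15. They had fallen more in the first hour, when 178 of the 387 were lower, against 10.5% of all genes. A higher late rate was found in 97 of the 387, against 5.67% of all genes. ZNF223 (-1.88) and ZNF460 (1.23) were the extremes, both at under 5 CPM, and ZNF664, the most abundant, was at 0.10, a value that turned to -0.21 with scaling to GAPDH plus ACTB. ZNF664 was not called without replicate 1, 2 or 3 (adjusted p = 0.0557, 0.0629 and 0.0659) or with DESeq2 (0.0676).

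Among cell-cycle genes, 51.8% of the mitosis and spindle list and 42.6% of the replication list were lower, against 25.3% over all genes. The replication list also had more higher members, at 35.2% against 25.3%. Both lists had more reads, with median mean counts of 1336 and 1031 against 304 over all genes. What part this had in the shares was not tested. Of 56 genes of mitosis and the spindle, 29 were lower and 6 higher, with a median of -0.14. Of the same 56, 8 had been lower in the first hour, against 10.5% of all genes. CDCA2, a phosphatase partner on chromosomes, fell from 31.0, 29.7 and 32.7 CPM to 16.4, 16.4 and 12.9 CPM (-1.03), and CKAP5, a microtubule polymerase, from 819, 871 and 855 CPM to 708, 771 and 707 CPM (-0.22). FOXM1, the factor that drives mitotic genes, rose from 275, 272 and 304 CPM to 340.3, 309 and 348 CPM (0.23). Of 54 genes of DNA replication, 23 were lower and 19 higher, with a median of -0.02. With library totals the counts were 39 lower and 2 higher for mitosis and 28 and 9 for replication. DTL, a substrate receptor for replication-coupled degradation, fell from 166, 177 and 150.03 CPM to 95.7, 92.7 and 68.4 CPM (-0.94, SE 0.052), whereas POLD1, the catalytic subunit of DNA polymerase delta, rose from 95.5, 81.3 and 88.5 CPM to 107, 114 and 133 CPM (0.41), and MCM7, of the replicative helicase, was at 0.11 and not called without replicate 2 (adjusted p = 0.0521). Of 73 replication-dependent histone genes, whose messages lack a poly(A) tail, 7 were measured and HIST1H2BK was called higher (0.39).

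Stress-response genes were mixed. Of 23 genes of the integrated stress response 10 were lower and 5 higher, with a median of -0.21. XBP1, a transcription factor of the unfolded protein response, fell from 39.5, 34.8 and 33.6 CPM to 15.2, 11.7 and 8.74 CPM (-1.60), and PHGDH, the entry enzyme of serine synthesis, rose from 377, 359 and 376 CPM to 449, 421 and 454 CPM (0.25). HSPA5, the chaperone of the endoplasmic reticulum, was at -0.04 (SE 0.027), which did not pass. Among 36 chaperone genes 8 were lower and 16 higher. DNAJB1, a heat-inducible cochaperone, fell from 78.6, 62.7 and 62.2 CPM to 30.5, 20.2 and 14.9 CPM (-1.65), HSPB1 was at 0.41 and HSPA8, a constitutive chaperone, at 0.02. The BCL2 family had 4 lower and 2 higher of 14, with BMF at -0.93 and BID at 0.19, not called without replicate 1 (adjusted p = 0.0788). Of 16 clock genes 6 were lower, led by NR1D1 (-2.32), which was measured at 0.387 to 0.810 CPM at 2 h and was at 0 in replicate 1 at 4 h. NR1D1 was not called without replicate 1 (-1.85, adjusted p = 0.0668) or 2 (-1.98, 0.0926). CRY1 was at -0.06. Of 20 SR protein and CLK kinase genes 7 were lower and 5 higher, with SRPK2 at -0.50, CLK2 at 0.44 and SRSF1 at -0.14.

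Among 28 sterol genes 5 were lower and 15 higher, with a median of 0.12. INSIG1, the sterol-sensing anchor of the pathway, fell from 36.3, 35.7 and 48.1 CPM to 23.9, 25.5 and 30.9 CPM (-0.57, SE 0.070). SCD, a fatty acid desaturase and the most abundant of the list, stood at 1600.5, 1730.1 and 2169 CPM and then at 1895, 2033 and 2500.2 CPM (0.23, SE 0.025), with groups that overlapped and a rise in every pair. SQLE, an enzyme of cholesterol synthesis chosen after its values were seen, fell from 175, 168 and 176 CPM to 116, 115 and 123 CPM (-0.55).

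Most cytosolic ribosomal protein and respiratory chain genes were higher. Of 81 cytosolic ribosomal protein genes, 74 were higher and 1 lower, with a median of 0.23. RPLP1, of the ribosomal stalk, stood at 987, 965 and 886 CPM at 2 h and at 1231, 1319 and 1289 CPM at 4 h (0.44, SE 0.032), and RPL4 was at 0.11. The one called lower, RPL36A (-0.82), had 9 to 34 reads per library and many processed copies in the genome, and it was not called without replicate 1 (adjusted p = 0.113) or 2 (0.0828). Reads of the whole group can be shared with pseudogenes. Of 79 nuclear-encoded genes of the respiratory chain 63 were higher and 2 lower, with a median of 0.22. ATP5B, a subunit of ATP synthase, stood at 1324, 1261 and 1323 CPM and then at 1583, 1499 and 1553 CPM (0.25). NDUFV3 (-0.32) and UQCRFS1 (-0.19) were the 2 called lower, the first not without replicate 1 (-0.20, adjusted p = 0.111). Mitochondrially encoded genes were not analysed here.

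Of 76 mitochondrial ribosomal protein genes 23 were lower and 20 higher, with a median of -0.02, and the counts became 35 and 9 with library totals and 60 and 0 with GAPDH plus ACTB. MRPL44 fell from 27.9, 30.1 and 31.5 CPM to 14.7, 14.4 and 10.8 CPM (-1.17, SE 0.096), MRPL53 was at 0.39, and MRPL3, the most abundant, at -0.03. Genes of glycolysis and the TCA cycle had 27 higher and 1 lower of 39, at a median of 0.21, with ENO2 at 0.38 and HK2, the first enzyme of glycolysis in many tumours, at -0.22. Proteasome subunits had 22 higher and 3 lower of 36, at 0.14, with PSMD2 at 0.22, PSMB10 at 0.47 and PSMD12 at -0.32. Without replicate 3 PSMB10 stood at 0.31 and was not called (adjusted p = 0.118). Translation factors had 29 higher and 10 lower of 61, at 0.09. EIF2AK3, the kinase PERK, was at -1.10, EEF1A1 at 0.13 and EIF5AL1, a close copy of EIF5A, at 0.52. Aminoacyl-tRNA synthetases had 17 higher and 8 lower of 37, at 0.07. The members called with the most negative and the most positive change were both mitochondrial enzymes, MARS2 (-0.73), with 1 exon, and CARS2 (0.38), and IARS was at 0.13.

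Most lysosomal, matrix and integrin, and cytoskeletal genes were called higher. Of 35 genes of the lysosome and its proton pump 30 were higher and 1 lower, with a median of 0.25. PSAP, the precursor of the saposins, stood at 1054, 1065 and 1042 CPM and then at 1307, 1302 and 1217 CPM (0.27, SE 0.026), GAA was at 0.52 and ATP6V1B2, the one called lower, at -0.13. Neither was called without replicate 3 (GAA at 0.29, adjusted p = 0.218, and ATP6V1B2 at -0.12, 0.0855), nor was ATP6V1B2 without replicate 2 (0.141). Of 49 measured genes with collagen, laminin or integrin symbols 33 were higher and 0 lower, with a median of 0.24. COL1A1, the main chain of type I collagen, stood at 3805, 3906 and 3126 CPM and then at 4469, 5042 and 4559.6 CPM (0.38). The highest value, 0.79, was that of ITGB1BP2, an integrin-binding protein and no integrin, at under 3 CPM, and it was not called with library totals (adjusted p = 0.0751), without the count filter (0.0920), without the block (0.0816), in the fit of 6 libraries (0.0590), or without replicate 2 (0.167) or 3 (0.44, 0.428). Of 19 tubulin, actin and actin-binding genes 15 were higher and 0 lower, at a median of 0.20, with PFN1, which encodes profilin, highest at 0.35.

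The direction of these groups depends on the scaling. Library totals left the medians of ribosomal protein (0.14), respiratory chain (0.13), glycolysis and TCA cycle (0.12), proteasome (0.05), lysosome (0.17), matrix and integrin (0.16) and tubulin and actin genes (0.12) above 0. With GAPDH plus ACTB they turned. The median of the cytosolic ribosomal protein genes was then -0.08 (40 lower and 4 higher), that of the respiratory chain -0.08 (27 and 4), glycolysis and the TCA cycle -0.10 (17 and 0), the proteasome -0.17 (33 and 0), the lysosome -0.05 (10 and 1), collagens, laminins and integrins -0.06 (12 and 2) and tubulin and actin -0.10 (10 and 0). All of them stayed above the median of all genes, which was -0.28 under that scaling. Translation factors, tRNA synthetases, chaperones and sterol genes turned to -0.22, -0.23, -0.22 and -0.18. With library totals the lower calls outnumbered the higher ones in these 4 lists, at 18 against 16, 9 against 5, 14 against 9 and 9 against 8, and the median of the tRNA synthetases was -0.01. Without the replicate block, 4 sterol genes were called lower and 1 higher, and 5 tRNA synthetases in each direction.

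**Figure D5:**
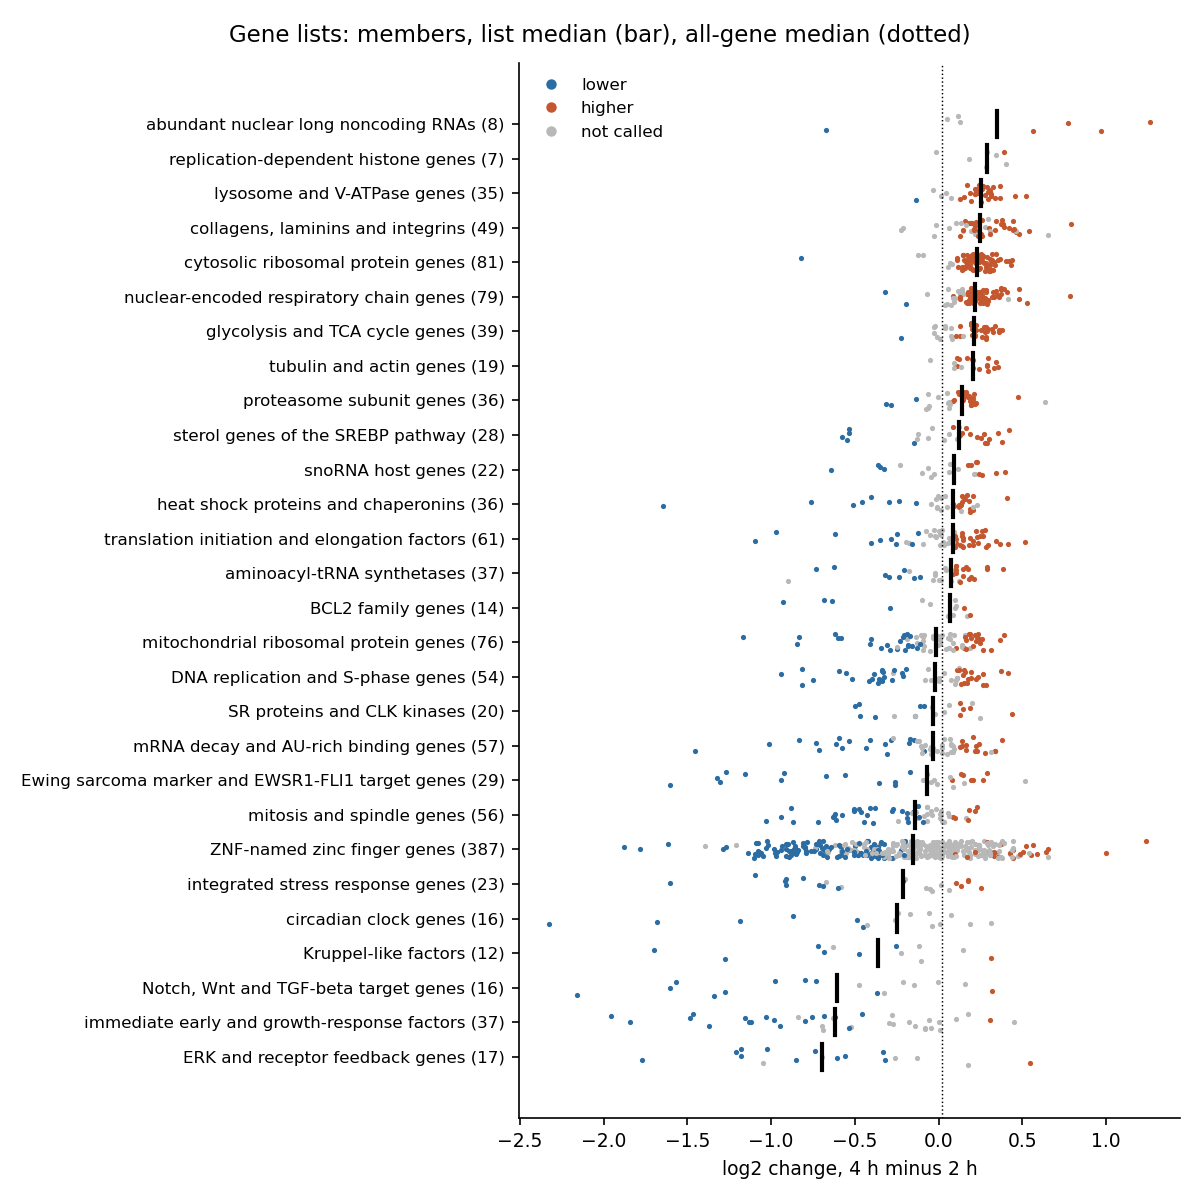
Log2 change from 2 to 4 h of every measured member of 28 gene lists (points, coloured by call, number of genes in brackets), with the median of each list as a bar and the median of all genes, 0.02, dotted. Signalling-response lists have medians from -0.70 to -0.36 with wide spread. Lists of cytosolic ribosomal, respiratory, lysosomal and matrix genes have medians around 0.2, with single members from -0.82 to 0.79. The mitochondrial ribosomal list has a median of -0.02.

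Noncoding host genes and nuclear RNAs did not move as 1 class. Of 22 snoRNA host genes 4 were lower and 8 higher, at a median of 0.09 that turned to -0.21 with scaling to GAPDH plus ACTB. Of the same 22, 9 had been lower in the first hour, against 10.5% of all genes. SNHG7 fell from 39.3, 42.3 and 29.9 CPM to 22.3, 28.4 and 20.6 CPM (-0.64), DANCR rose from 84.0, 89.1 and 93.1 CPM to 125, 112 and 114 CPM (0.40), and GAS5 was at 0.18 with groups that overlapped. Of 8 abundant nuclear long noncoding RNAs 4 were higher and LINC00657, a cytoplasmic RNA also known as NORAD, was lower, from 232, 249 and 253 CPM to 140.3, 157 and 162 CPM (-0.67, SE 0.042).

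Genes of mRNA decay itself were found on both sides, with 18 lower and 14 higher of 57 and a median of -0.03. DCP1B, a decapping factor, fell from 4.37, 5.16 and 4.45 CPM to 1.42, 2.32 and 1.23 CPM (-1.46), LSM7, of the ring that binds deadenylated ends, rose from 33.5, 33.0 and 34.7 CPM to 41.0, 43.8 and 46.4 CPM (0.38), and CNOT1, the scaffold of the main deadenylase, was at -0.09. In each of the 3 the groups stood apart, though CNOT1 by little, with 435, 432 and 434 CPM at 2 h and 400.1, 429 and 397 CPM at 4 h, and it was not called without replicate 1 (adjusted p = 0.146) or 3 (0.137).

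Among 29 marker and target genes of the Ewing sarcoma fusion factor EWSR1-FLI1, 13 were lower and 7 higher, with a median of -0.07. ID2 fell most. FLI1, whose reads in this tumour come in part from the fusion transcript, fell from 52.3, 50.5 and 49.5 CPM to 20.3, 24.9 and 16.03 CPM (-1.31, SE 0.084), and NR0B1, a nuclear receptor under control of the fusion, from 23.1, 23.6 and 18.7 CPM to 9.24, 10.2 and 7.73 CPM (-1.27). EWSR1, the other fusion partner, was at 0.20; these 3 were chosen after their values were seen. LOX, a collagen crosslinking enzyme, was at 0.29 and CAV1, of caveolae, the most abundant, at 0.08, both with overlapping groups. CAV1 was not called without replicate 1 (0.05, adjusted p = 0.143) or 2 (0.129).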

How the data were processed

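The authors deposited 1 table of raw read counts per gene for 12 poly(A) libraries of shA673-1c cells. The submitters' processing notes name FastQC, STAR and hg19; the counter, the annotation and the strand setting are not given in the sources used here. All columns matched a label (0 unmatched). The 12032 genes whose counts averaged 10 or more across all 12 libraries were fitted with edgeR 4.0.16 (R 4.3.3) on trimmed mean of M-values scaling, in 1 quasi-likelihood model of time and replicate number, with Benjamini-Hochberg adjustment over all of them and a threshold of 0.05. The common coefficient of variation was 3.08%. CPM values use the scaled library sizes. Depth was 9147018 to 11194705 counts in the libraries compared, and replicates of 1 time differed by more than counting noise, the ratio of chi-square to its degrees of freedom being 3.99 to 8.65.

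The labels number the replicates 1 to 3 at each time. Same-numbered libraries of 2 and 4 h deviated together (correlations 0.347 to 0.543 for 3 pairs, against -0.366 to 0.053 for 6 pairs of different numbers), so the number was kept as a block. The contrasts were 4 h against 2 h, 1 h against 0 h, and the hourly rate of the late against the early interval.

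The members, the 29 gene lists and the tests were chosen with earlier results of these data known. Genes named were the 16 most negative and 10 most positive changes with an adjusted p under 0.05, a mean of at least 50 counts and 1 sign in all 3 pairs, the 6 greatest rate differences in each direction, for each list the called members with the most negative and most positive change and the most abundant member, and GAPDH and ACTB. Some genes that the rule names are not reported here. SQLE, UQCRFS1, FLI1, NR0B1 and EWSR1 stand outside this rule, as do CCND1, LIPI, PRKCB, STEAP1, NKX2-2, KIT and CD99, which are marker genes. Transcript features were read from GENCODE 44 on GRCh38, 11155 genes by symbol and 644 by another name, and figures were drawn with matplotlib 3.10.9. The model was tested on simulated counts for 4 h against 2 h, where it recovered 141 of 200 changed genes among 11992, with 6% of 150 calls false. The simulation changed few genes, in both directions alike, and gave all genes 1 dispersion. It therefore cannot test the scaling where many genes change, as here. Alternatives were other scalings, count filters, no block, DESeq2 1.42.0, leaving out each replicate, an adjusted p of 0.1 and a fit of the 6 libraries alone.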

Additional observations from a re-analysis of the deposited data

Results flagged for a closer look

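The hourly change from 2 to 4 h differed from that from 0 to 1 h, by edgeR's test of the difference between the intervals, in 794 genes with a lower late rate and 682 with a higher one. Among genes that averaged 50 counts or more, the late rate was lower by the largest amounts, in log2 per hour, in RNF19B (-1.06), C14orf169 (-1.034), CCDC12 (-1.006), TMEM177 (-0.8759), PDXDC2P (-0.8672) and MUL1 (-0.84). It was higher in ADRB1 (1.914), SOCS3 (1.8), C2orf69 (1.762), TRIB1 (1.591), GADD45B (1.587) and DNM3OS (1.557). The groups of 3 libraries were too small for a search for outlying samples.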

How the results depend on the processing

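With no spike-in, the direction of a modest change depends on the scaling, and for a gene already down to a few reads at 2 h a further fall is measured with little precision. The 3046 lower genes became 7343 with scaling to GAPDH plus ACTB and 2580 to 2756 with a replicate left out. The 3050 higher genes became 1811 with library totals, 130 with GAPDH plus ACTB, 1449 without the replicate block and 2231 to 2551 with a replicate left out. Lower rates were counted at 1249 with library totals, 72 without the block, 443 with DESeq2 and 365 to 608 with a replicate left out, and higher rates at 376 with library totals, 328 with GAPDH plus ACTB, 98 without the block, 218 with DESeq2 and 257 to 427. The cause was not tested. Scaling to GAPDH plus ACTB reversed the log2 change of ACTB (-0.011), ATP5B (-0.059), BID (-0.12), C2orf69 (-0.044), CAV1 (-0.23), EEF1A1 (-0.18), FOXM1 (-0.078), GAS5 (-0.13), HSPA8 (-0.29), IARS (-0.18), KLF6 (-0.16), LOX (-0.015), MCM7 (-0.20), PHGDH (-0.052), PSAP (-0.030), PSMD2 (-0.080), RPL4 (-0.19), SCD (-0.078) and ZNF664 (-0.21), and library totals reversed CAV1 (-0.0058) and HSPA8 (-0.069). With a replicate left out, changes not called ran from -0.19 to 0.00027 for DNM3OS, -0.23 to 0.16 for GADD45B, -0.022 to 0.035 for HSPA8, -0.28 to 0.097 for PDXDC2P, -0.20 to 0.19 for SOCS3 and -0.31 to 0.046 for TRIB1. Without the block 25 values of named genes lost their call. With scaling to GAPDH plus ACTB 22 values kept their sign but lost their call. Among them were COL1A1 (0.077), POLD1 (0.11), CLK2 (0.13), DANCR (0.091), HSPB1 (0.10) and SPRY4 (0.24).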
